A study of Mus musculus with 8 samples.

Results

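The regions described here were 482 PU.1 peaks that were called in the empty-vector line of a murine leukaemia, that lay away from promoters and that had no CEBPA peak over them. They made up 9.11% (95% confidence interval 8.35–9.92%) of the 5288 PU.1 peaks of that line, and they came from lists that held 67673 PU.1 and CEBPA peaks in all. The peaks were chosen by the peak calls themselves. A peak of the empty-vector list was kept when it shared no base with a PU.1 peak of the PuER line, when its centre lay more than 1000 bp from the start of every protein-coding transcript (GENCODE annotation of the mm10 mouse genome), and when it shared no base with a CEBPA peak of the empty-vector line. Over all 5288 peaks, 43.8% met the first condition, 73.4% the second and 42.4% the third, and nothing is read from these shares because the rule used them.

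X18.1.1 is a cell line from a radiation-induced acute myeloid leukaemia (AML) of the mouse. All groups share its *Pu.1* lesions: 1 allele is deleted, and the other is mutated both by a substitution within the domain that binds DNA and by a loss of part of the PEST domain. The empty-vector (EV, or PU.1−) line therefore had only mutant PU.1, whereas the PuER (PU.1+) line also carried, from a retrovirus, wild-type PU.1 joined to the oestrogen receptor domain, a fusion switched on by 4-hydroxytamoxifen (OHT). Each line was a single clone, and both were incubated in 100 nM OHT for 2 h. Chromatin immunoprecipitation used a PU.1 antibody or a CEBPA antibody, with 1 library for each antibody and line. With 1 library per group there was no replicate check, and a difference between the clones cannot be told apart from a difference between the vectors.

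The peak lists held coordinates only, without heights, read counts or scores, so the read depth is unknown. There were 5288 and 15683 PU.1 peaks in the EV and PuER lines, and 26119 and 20583 CEBPA peaks, respectively. Each peak was 400 bp wide. A peak that is missing from a list was below an unstated threshold, which does not show that the protein was absent. Intervals cover counting error only, and peaks are not replicates of a cell line.

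PU.1 (encoded by *Spi1*) is a transcription factor of the ETS family, whose members bind a GGAA core through a shared domain and are told apart partly by the bases that flank it. PU.1 prefers a purine-rich stretch ahead of the core, whereas ETS1 and its close relatives prefer CCGGAAGT or CAGGAAGT. CEBPA is a basic leucine zipper protein that acts with PU.1 at many myeloid enhancers, and RUNX factors are another common partner at such sites. 5 motifs are used most below, counted as exact matches on both strands: the ETS site GGAAGT, and within it the PU.1-type site GAGGAAGT and the ETS1-type site (CCGGAAGT or CAGGAAGT), with the CEBP site TTGCNNAA and the RUNX site TGTGGT or TGCGGT.

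The central 80 bp of selected members are shown as examples. Most were chosen for a named site near the peak centre, so they do not show how often such sites occur. The sequences are printed 5′ to 3′ on the forward strand of mm10 in lower case, with the named site in capitals, as it reads on that strand. First come the ETS1-type peaks with the site nearest the peak centre. All 3 sites read ACTTCCTG, the reverse complement of CAGGAAGT, with the midpoint 1 bp from the centre.
Intron of Itpr1, chr6:108445228-108445307: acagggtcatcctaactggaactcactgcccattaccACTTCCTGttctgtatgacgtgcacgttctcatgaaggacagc
Intron of Filip1, chr9:79952173-79952252: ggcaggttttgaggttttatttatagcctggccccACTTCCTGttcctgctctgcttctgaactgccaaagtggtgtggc
Non-coding gene, assigned to Ebf2, chr14:67189119-67189198: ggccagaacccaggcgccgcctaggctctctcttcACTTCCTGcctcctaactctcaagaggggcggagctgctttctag
The PU.1-type peaks nearest the centre are shown for contrast, because this form of the site was uncommon in the class. Their sites lay 3 and 5 bp from the centre.
Intron of Sv2c, chr13:96006855-96006934: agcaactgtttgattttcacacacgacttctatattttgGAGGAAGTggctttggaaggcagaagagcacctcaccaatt
Coding exon of Def6, chr17:28226214-28226293: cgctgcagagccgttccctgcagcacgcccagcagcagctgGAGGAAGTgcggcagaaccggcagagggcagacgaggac
The next pair held a RUNX and an ETS site together. In the second of them the sites were a single base apart.
Intron of Traf3, chr12:111230923-111231002: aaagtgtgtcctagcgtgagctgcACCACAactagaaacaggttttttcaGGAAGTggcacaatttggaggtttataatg
Between genes, assigned to Hspb7 and Srarp, chr4:141431218-141431297: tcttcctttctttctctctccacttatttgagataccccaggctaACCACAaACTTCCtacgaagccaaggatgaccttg
An AP-1 site (TGANTCA, bound by FOS and JUN proteins) stood closest to the centre in the following peaks.
Between genes, assigned to Plekhg6 and Cd9, chr6:125426537-125426616: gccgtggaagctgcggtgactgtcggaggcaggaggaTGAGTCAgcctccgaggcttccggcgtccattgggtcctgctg
Between genes, assigned to Mt1 and Nup93, chr8:94187483-94187562: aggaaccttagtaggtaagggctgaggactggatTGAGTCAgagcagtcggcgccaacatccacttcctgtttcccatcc
The AGAAGTG and CTCF sets that come next were chosen after the values below were seen. These 3 peaks had AGAAGTG and no GGAAGT.
Intron of March4, chr1:72494464-72494543: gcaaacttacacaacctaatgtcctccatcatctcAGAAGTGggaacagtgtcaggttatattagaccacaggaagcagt
Between genes, assigned to Hnmt, chr2:23997001-23997080: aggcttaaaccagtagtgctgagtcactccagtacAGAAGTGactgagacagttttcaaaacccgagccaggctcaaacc
Intron of Zfyve28, chr5:34236138-34236217: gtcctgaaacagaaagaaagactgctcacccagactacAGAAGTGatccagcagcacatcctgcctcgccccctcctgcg
The next peak held a CTCF core 1 bp from its centre.
Between genes, assigned to Gm11541 and Cdc34b, chr11:94730422-94730501: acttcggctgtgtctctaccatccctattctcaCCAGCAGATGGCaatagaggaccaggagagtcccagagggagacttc
Finally, the pair of peaks assigned to *1600014C23Rik* is shown, which is first in alphabetical order among the genes with the most members. Capitals mark GGAAGT, as ACTTCC, in the first and GGAAGTG in the second, and with the 2 bases that follow its capitals the first is a PU.1-type site.
Non-coding gene, assigned to 1600014C23Rik, chr17:45735432-45735511: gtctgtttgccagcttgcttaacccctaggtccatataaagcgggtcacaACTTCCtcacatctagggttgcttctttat
Non-coding gene, assigned to 1600014C23Rik, chr17:45767898-45767977: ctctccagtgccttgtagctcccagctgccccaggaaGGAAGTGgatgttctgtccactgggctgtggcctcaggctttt

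Sequence was not used to choose the peaks, so it was compared with that of 3 other classes of distal peaks. These were 949 EV-only peaks that did overlap a CEBPA peak of the EV line, 898 EV peaks shared with the PuER list and without CEBPA in the EV line, and 9306 peaks called only in the PuER line and without CEBPA in the EV line. Windows of 80 bp centred 2000 bp to either side of each peak gave the background. Differences between classes are given in percentage points with a 99.9% Newcombe interval, which is a 95% level adjusted over 42 differences (14 motifs and 3 classes). Where other lengths of sequence are given, the adjustment was made within each length and not across lengths.

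ETS sites were common in the 482 peaks, but less so than where PU.1 was called in the PuER line. GGAAGT lay within the central 80 bp in 170 peaks (35.3%, 31.0–39.7%) and in 4.67% of flanking windows. EV-only peaks with CEBPA had it in 23.9%, shared peaks in 46.0% and PuER-only peaks in 45.2%. The difference was 11.3 points above the class with CEBPA (interval 3.16 to 19.8). It was −10.7 points from the shared peaks (−19.3 to −1.69) and −9.94 points from the PuER-only peaks (−16.8 to −2.45). All 3 intervals excluded 0. The difference from PuER-only peaks no longer did so in the central 200 bp (−6.04 points, −13.6 to 1.36) or the whole 400 bp (−5.23 points, −12.8 to 1.91). In the central 80 bp, only 7 of the 482 peaks held 2 or more GGAAGT sites.

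The kind of ETS site also differed. In the central 80 bp, the ETS1-type site was present in 64 peaks (13.3%, 10.4–16.6%) and the PU.1-type site in 16 (3.32%, 1.91–5.33%), against 0.622% and 0.519% of flanking windows. In PuER-only peaks the order was the opposite, with the ETS1-type site in 5.41% and the PU.1-type site in 16.9%. The ETS1-type share was 7.87 points higher than in PuER-only peaks (3.56 to 13.7) and the PU.1-type share was lower, by a difference of −13.6 points (−15.8 to −9.63). Shared peaks held both forms often, the ETS1-type site in 17.3% and the PU.1-type site in 12%. The PU.1-type share was below that of shared peaks (difference −8.71 points, −13.1 to −3.82), whereas the ETS1-type difference from them, −3.98 points (−10.1 to 2.90), did not exclude 0. Against EV-only peaks with CEBPA, neither form differed beyond its interval (3.06 points, −2.52 to 9.48, and 2.16 points, −0.37 to 6.02).

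The same contrast is seen when each pair of bases directly ahead of GGAAGT is counted. Among the 175 GGAAGT sites in the central 80 bp of the 482 peaks, CA stood ahead of the site in 62 (35.4%). AA and GT stood there in 18 each (10.3%) and GA, which makes the PU.1-type site, in 16 (9.14%). CC, which like CA makes an ETS1-type site, stood there in only 5 (2.86%). In shared peaks CA preceded 34.6% and GA 24.4% of sites. In PuER-only peaks GA was the most frequent pair with 34.1%, and CA preceded 10.6%. EV-only peaks with CEBPA had CA at 40.7% and GA at 4.76%. These are descriptions, since they count the same sites as the motifs above.

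**Figure D1:**
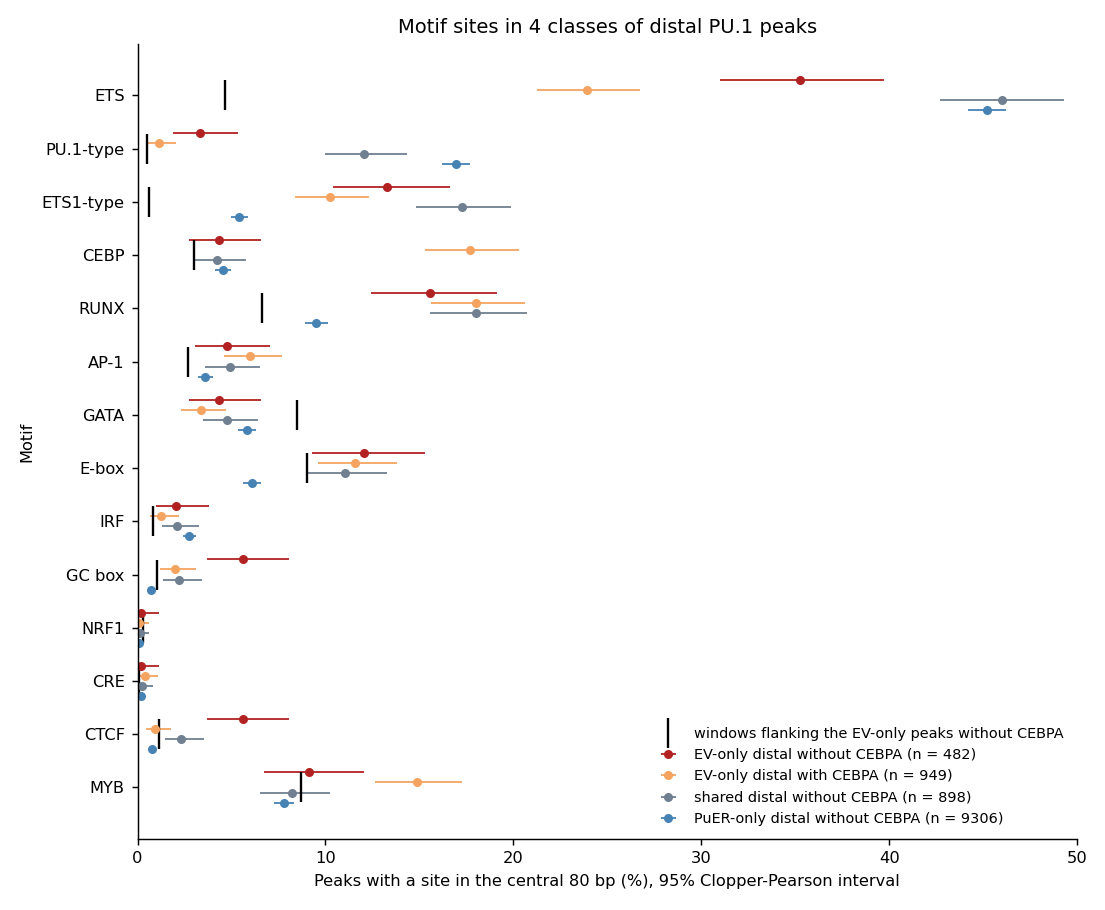
Share of peaks with a site for each of 14 motifs in the central 80 bp (x axis, percent), for 4 classes of distal PU.1 peaks. Points are shares, bars are 95% Clopper-Pearson intervals and black ticks are the windows flanking the EV-only peaks without CEBPA. ETS sites were found in 35.3% of that class, and CTCF cores and GC boxes in 5.60% each.

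CEBP sites were near the background in the absence of a CEBPA peak. TTGCNNAA was present in 21 of the 482 peaks (4.36%, 2.72–6.58%), against 3.01% of flanking windows and 17.7% of EV-only peaks with CEBPA (difference −13.3 points, −18.2 to −7.85). CEBPA peaks were part of the rule, so this gap describes how the classes were divided. A RUNX site was present in 75 peaks (15.6%, 12.4–19.1%), against 6.64% of flanking windows. This was 6.06 points above the PuER-only peaks (9.50%, interval 1.34 to 12.2), and the differences from the EV-only peaks with CEBPA and the shared peaks (18% each), −2.46 points (−8.82 to 4.65) and −2.48 points (−8.94 to 4.68), did not exclude 0. Over the whole 400 bp both calls turned, with 4.82 points (−2.36 to 12.4) against PuER-only peaks and −10.0 points (−18.8 to −0.977) against EV-only peaks with CEBPA. In the central 80 bp, RUNX and ETS sites occurred together in 16 peaks (3.32%). Of the 75 peaks with a RUNX site, 44 had neither GGAAGT nor GAAGTG in the same 80 bp.

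A CTCF core and a GC box were each found more often than in EV-only peaks with CEBPA and in PuER-only peaks. CTCF is the zinc-finger protein of insulators and chromatin loops. Its core was present in the central 80 bp of 27 peaks (5.60%, 3.72–8.05%), against 1.14% of flanking windows, 0.948% of EV-only peaks with CEBPA and 0.752% of PuER-only peaks. The differences were 4.65 points (1.60 to 9.13) and 4.85 points (2.28 to 9.29). From shared peaks (2.34%) it differed by 3.26 points with an interval of −0.143 to 7.85. When the whole 400 bp were searched, 89 peaks had a core (18.5%, 15.1–22.2%), and the difference from shared peaks (9.35%) was 9.11 points (2.90 to 16.0). Among those 89 peaks, 15 were CpG-rich (16.9%, 9.75–26.3%) and 9 lay within 1000 bp of a non-coding transcript start. A GGAAGT stood in the central 80 bp of 33 of them (37.1%, 27.1–48.0%), a share like that of all 482. The ETS1-type site was in 7 (7.87%, 3.22–15.5%), and 35 (39.3%, 29.1–50.3%) lay inside a protein-coding gene. The GC box GGGCGG, a site for SP and KLF factors that is typical of CpG-island promoters, was likewise present in 27 peaks (5.60%), against 1.04% of flanking windows. It was 3.60 points above EV-only peaks with CEBPA (0.313 to 8.15) and 4.89 points above PuER-only peaks (2.33 to 9.33), and 3.37 points above shared peaks with an interval of −0.00902 to 7.95. In the central 200 bp the difference from shared peaks was 7.23 points (1.87 to 13.5).

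In the central 80 bp the other motifs set the class apart only from the PuER-only peaks, or not at all. An E-box (CAGCTG or CAGGTG, bound by basic helix-loop-helix factors) was present in 12% against 6.09% of PuER-only peaks (5.94 points, 1.84 to 11.6), beside 9.02% of flanking windows. AP-1 sites were present in 4.77%, GATA sites (AGATAA or TGATAA) in 4.36%, IRF sites in 2.07%, and MYB sites (TAAC or CAAC followed by GG or TG) in 9.13%. The GATA share was below the 8.51% of flanking windows, and the MYB share was close to its flanking share of 8.71%. GATA sites were also below their flanking shares in EV-only peaks with CEBPA (3.37% against 8.06%) and shared peaks (4.79% against 7.91%). The same held for PuER-only peaks (5.82% against 8.71%). In the central 200 bp, however, MYB sites were fewer than in EV-only peaks with CEBPA (20.5% against 31.0%, difference −10.4 points, −17.8 to −2.41). NRF1 (GCGCATGC) and CRE (TGACGTNA) sites were found in 1 peak each. Of the 14 motifs in the central 80 bp, 4 differed from EV-only peaks with CEBPA, 2 from shared peaks and 7 from PuER-only peaks by intervals that excluded 0.

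A sequence related to the ETS site led the class when all sequences of 6 bases were ranked by their excess over flanking windows. This was GAAGTG, present in the central 80 bp of 228 of the 482 peaks (47.3%, 42.8–51.9%) and in 4.56% of flanking windows. It overlaps GGAAGT, which ranked second. GAAGTG also led, with GGAAGT next, in EV-only peaks with CEBPA and in shared peaks, so this order was not particular to the class. In PuER-only peaks GGAAGT led and GAAGTG had rank 4. GAAGTG was found in 24.4% of EV-only peaks with CEBPA, 59.8% of shared peaks and 36.5% of PuER-only peaks. Within it, G preceded the 6 bases in 135 peaks (GGAAGTG, 28.0%), A in 82 (AGAAGTG, 17%, 13.8–20.7%), T in 17 and C in 2. AGAAGTG was found in 1.56% of flanking windows, and in 7.59% of EV-only peaks with CEBPA, 20.6% of shared peaks and 8.71% of PuER-only peaks. In 70 of the 482 peaks (14.5%, 11.5–18%) AGAAGTG occurred with no GGAAGT in the central 80 bp, as in the *March4*, *Hnmt* and *Zfyve28* sequences printed above. The corresponding shares were 7.17%, 16.9% and 6.42%. These sequences were picked out after their values were seen, so no test of a difference is given.

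Together GAAGTG and GGAAGT covered 254 of the 482 peaks (52.7%, 48.1–57.2%), against 7.37% of flanking windows. The other 228 peaks had neither in the central 80 bp. Among those 228, a RUNX site was present in 44 (19.3%), a GC box in 16 (7.02%), a CTCF core in 14 (6.14%) and a CEBP site in 5 (2.19%). In 144 of the 482 peaks (29.9%, 25.8–34.2%) the central 80 bp lacked all of these and AP-1 sites as well.

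Sites gathered at the peak centre. GGAAGT occurred at 10.2 and 12.2 sites per 100 peaks in the 20-bp bins to either side of the centre, and at 2.28 and 1.24 in the outermost bins. The nearest GGAAGT lay a median of 29 bp from the centre in the 289 peaks that had the site anywhere. In shared peaks the central bins reached 18 and 16.5, and the median distance was 23 bp. GAAGTG stood at 16.2 and 15.6 sites per 100 peaks in the central bins, with a median distance of 25 bp over 346 peaks. CTCF cores were spread more broadly. Their highest bin, with 2.28 sites per 100 peaks, lay 40 to 60 bp from the centre, and the nearest core was a median of 51 bp away. PuER-only peaks had at most 0.365 CTCF cores per 100 peaks in any bin.

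**Figure D2:**
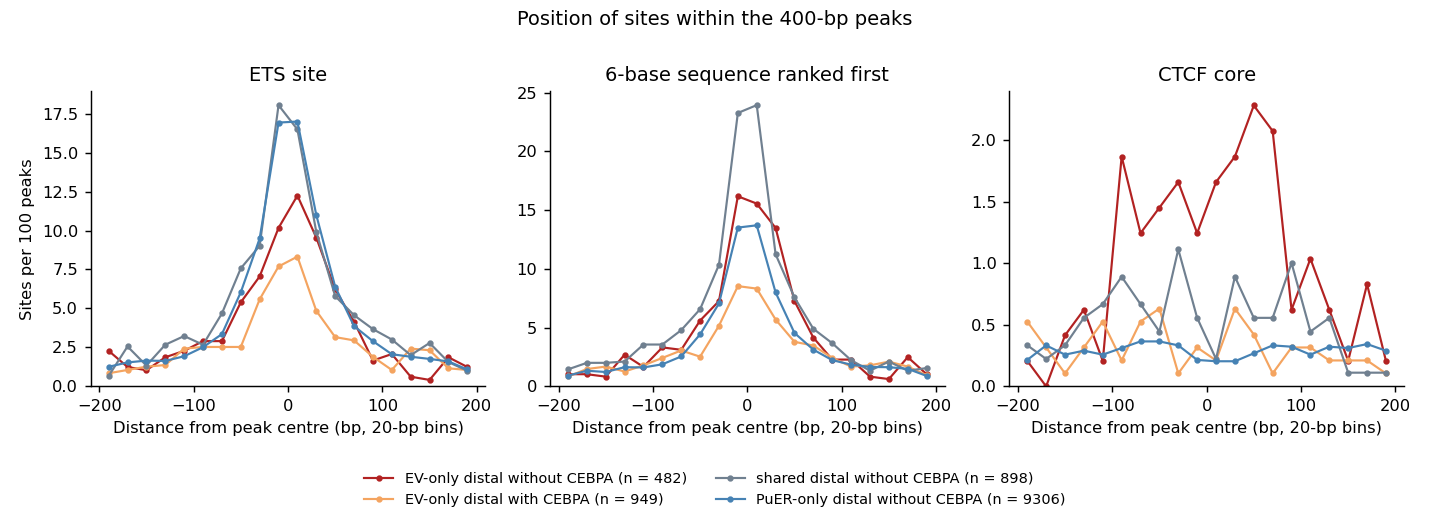
Sites per 100 peaks (y axis, a scale for each panel) in 20-bp bins along the 400-bp peak (x axis, distance from the centre) for the ETS site, the top-ranked 6-base sequence GAAGTG and the CTCF core. Lines are the 4 classes. In EV-only peaks without CEBPA the ETS site reached 12.2 sites per 100 peaks beside the centre, below the 18 of shared peaks, and the CTCF core reached 2.28.

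A small group of the peaks was rich in CpG. The median G+C content of the 482 peaks was 47.5% (quartiles 43.0% and 53.3%, range 26.8% to 75.8%), beside 46.8% in both EV-only peaks with CEBPA and shared peaks and 44.8% in PuER-only peaks. With a CpG-rich peak defined as G+C of at least 55% and observed over expected CpG of at least 0.65, 31 peaks were CpG-rich (6.43%, 4.41–9.01%). The shares were 1.16% (0.580–2.06%) in EV-only peaks with CEBPA, 1.11% (0.535–2.04%) in shared peaks and 0.107% (0.0515–0.198%) in PuER-only peaks. The cutoffs were set with the values in view, so this is a description. Of the 31, 9 held a GC box, 3 a CTCF core and 6 a GGAAGT in the central 80 bp, and none held an ETS1-type, PU.1-type or CEBP site, which allows a share of up to 11.2% by the upper exact bound. Of the 451 peaks that were not CpG-rich, 36.4% held GGAAGT, 14.2% an ETS1-type site, 5.32% a CTCF core and 3.99% a GC box.

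The rule removed promoters of protein-coding genes but not other transcript starts. The centre lay within 1000 bp of a non-coding transcript start in 39 peaks (8.09%, 5.82–10.9%). This was 4.51 points above EV-only peaks with CEBPA (3.58%, interval 0.498 to 9.62, adjusted over 36 differences of position) and 4.72 points above PuER-only peaks (3.37%, 1.5 to 9.64). From shared peaks (5.35%) the difference was 2.75 points (−1.57 to 8.01). Among the 31 CpG-rich peaks, 8 were near such a start. Repeats were rare: at least 50% of the bases were soft-masked in 6 peaks (1.24%). The share was much the same in EV-only peaks with CEBPA (1.16%) and shared peaks (1.78%), with differences that did not exclude 0. It was 5.37% in PuER-only peaks (difference −4.13 points, −5.31 to −1.14).

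The peaks were divided almost evenly between the inside and the outside of protein-coding genes. The centre lay inside such a gene in 240 peaks (49.8%, 45.2–54.3%), namely in an intron in 215, a coding exon in 13, a UTR in 10 and another exon in 2. A further 43 lay inside a non-coding gene only and 199 (41.3%) outside any gene. None of these places differed from EV-only peaks with CEBPA or from shared peaks beyond its interval. Coding exons held 2.70% against 1.01% of PuER-only peaks (1.69 points, 0.0885 to 5.21). The nearest protein-coding start was a median of 13872 bp from the centre, with quartiles of 5466 and 42409 bp. Peaks inside and outside genes held GAAGTG or GGAAGT to like extents (52.1%, 45.6–58.6%, and 53.3%, 46.8–59.7%), and RUNX sites in 19.2% (14.4–24.7%) and 12% (8.17–16.8%).

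**Figure D3:**
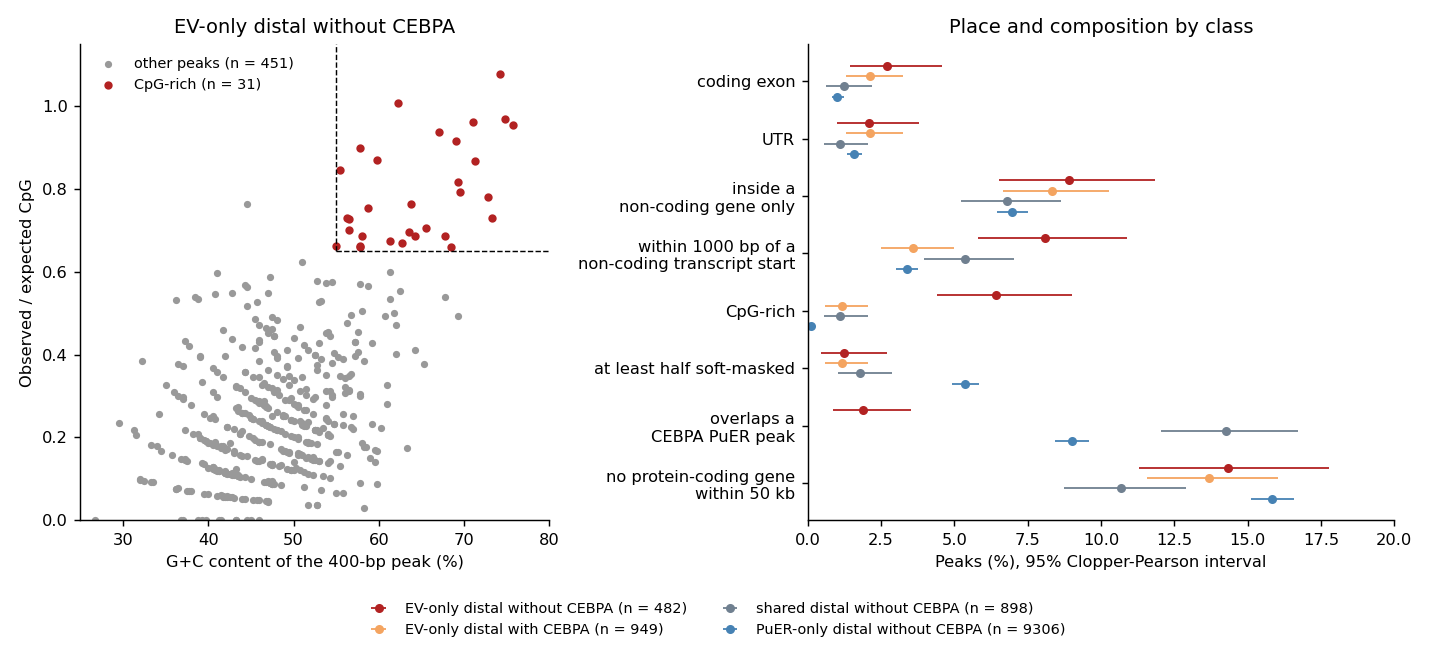
Left, G+C content (x axis, percent) and observed over expected CpG (y axis) of each of the 482 peaks, with the 31 CpG-rich peaks in red beyond the dashed cutoffs. Right, shares of peaks by place and composition in 4 classes with 95% Clopper-Pearson intervals, where CpG-rich peaks made up 6.43% of the EV-only peaks without CEBPA and at most 1.16% of the others. The overlap with CEBPA of the PuER line is left out for the class chosen for CEBPA.

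Few of these regions had a CEBPA peak in the PuER line. The rule did not use this list, but it left out peaks with CEBPA in the EV line or with PU.1 in the PuER line. Shared and PuER-only peaks, in contrast, have a PU.1 peak in the PuER line by definition. The shares below are therefore partly set by how the classes were divided. Of the 482 peaks, 9 overlapped a CEBPA peak of the PuER line (1.87%, 0.857–3.51%), while 7.58% of all EV PU.1 peaks without CEBPA in the EV line did so. Shared peaks without CEBPA in the EV line overlapped a PuER CEBPA peak in 14.3%, a difference of −12.4 points (−16.7 to −7.78), and PuER-only peaks in 8.99%, a difference of −7.13 points (−8.68 to −3.81). Among the 9, the peak in an intron of *Abca1* overlapped by 321 bp and the peak in an intron of *Man1c1* by 392 bp. The *Man1c1* peak held 2 CEBP sites in its central 80 bp, and the other 8 held none. In the *Plxnc1* and *Efcab12* introns the overlap was 48 and 13 bp. A CEBPA peak of the EV line lay within 1000 bp of the centre in 7 of the 9, and in 2 of them, at *Plxnc1* and *Efcab12*, the gap to it was 2 and 3 bp.

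Many of the peaks lay in the neighbourhood of CEBPA without touching it. The nearest CEBPA peak of the EV line had its centre a median of 6111 bp away, with quartiles of 1744 and 19398 bp. It was within 1000 bp in 74 peaks (15.4%, 12.3–18.9%) and within 5 kb in 212 (44.0%, 39.5–48.5%). The shares within 5 kb were 39.9% (36.6–43.2%) in shared peaks and 29.4% (28.5–30.3%) in PuER-only peaks. All these classes were chosen for having no overlap with the list, so the shortest distances are set by the rule. The nearest PU.1 peak of the PuER line was a median of 16324 bp away, and it lay within 5 kb of 116 peaks (24.1%, 20.3–28.1%), as it did for 24.7% (21.9–27.5%) of EV-only peaks with CEBPA.

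The members nearest the limits of the rule were close to peaks just outside it. The smallest distance to a protein-coding start was 1005 bp, and the largest among the EV-only peaks without CEBPA that were left out was 991 bp. The smallest gap to a PuER PU.1 peak was 1 bp, against an overlap of 8 bp for the nearest excluded peak, and the smallest gap to a CEBPA peak was 1 bp, against an overlap of 1 bp. Gaps under 100 bp to PuER PU.1 and to EV CEBPA peaks occurred in 7 and 20 members, respectively, and 48 had a protein-coding start within 2000 bp of the centre.

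**Figure D4:**
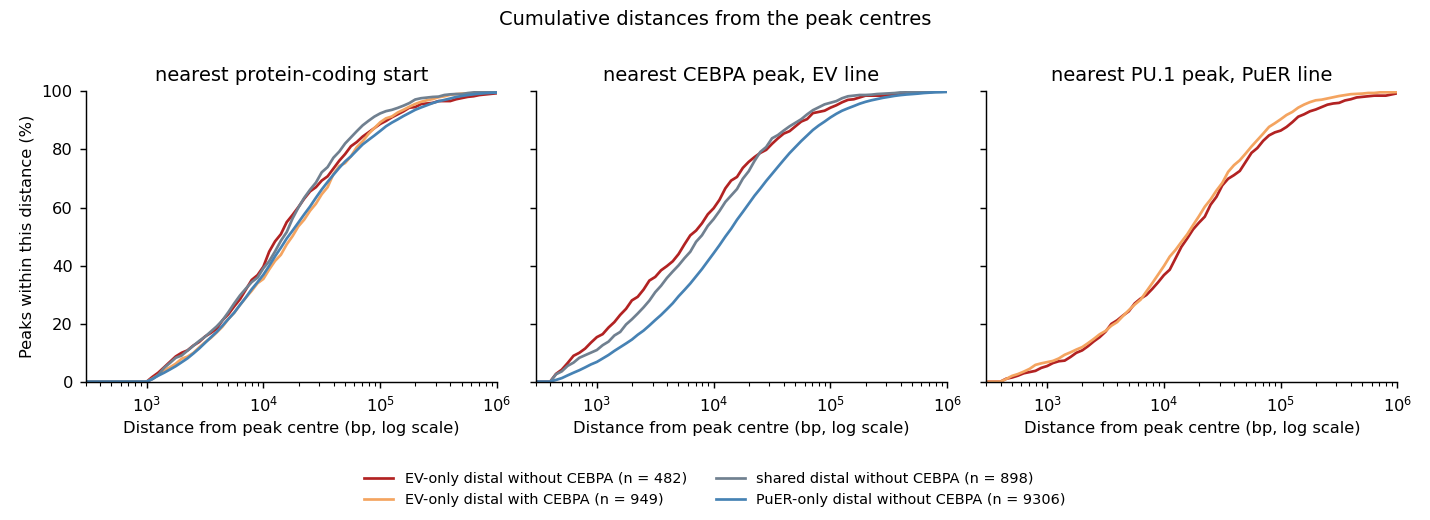
Cumulative share of peaks (y axis, percent) within a distance of the peak centre (x axis, bp, log scale) from the nearest protein-coding start, the nearest CEBPA peak of the EV line and the nearest PU.1 peak of the PuER line. Classes that overlap the list by definition are left out of a panel. Of the EV-only peaks without CEBPA, 44.0% had a CEBPA peak within 5 kb, beside 39.9% of shared peaks and 29.4% of PuER-only peaks.

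The peaks were scattered. On each chromosome with EV peaks they made up between 4.90% and 11.6% of them. Only 4 pairs of members lay within 10 kb of each other. The closest pair, 798 bp apart from centre to centre on chromosome 1, was assigned to *Marc2* and *C130074G19Rik*. The nearest other PU.1 peak of the EV line was a median of 48017 bp away.

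Peaks inside a protein-coding gene were assigned to it, and the others to the closest gene to the left and to the right, up to 50 kb away, which left 69 peaks (14.3%) with no gene. In all, 493 of 21924 protein-coding genes (2.25%) were assigned a member. No gene was assigned more than 2, and 470 had 1. Assignment by distance does not show that a gene is regulated by the peak, and long genes have more room for a peak.

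Of the 23 genes with 2 members, the first 12 in alphabetical order are described. For these and the listed genes below, sites were sought in the central 80 bp only. A site given as absent may lie elsewhere in the peak. *Cdk6*, the G1 cyclin-dependent kinase, had both peaks in introns, at 3358728–3359127 and 3516755–3517154 of chromosome 5. The first held an ETS1-type site and an AGAAGTG, and the second a RUNX site. *Cux1*, a homeodomain repressor, also had both in introns (chromosome 5, 136410960–136411359 and 136500520–136500919), each with a RUNX site and no ETS site. *Abca1*, the cholesterol efflux transporter, had peaks at 53121817–53122216 and 53158688–53159087 of chromosome 4, both in introns and each with a RUNX site. The second lay 1007 bp from the start of the gene and was among the 9 with a CEBPA peak in the PuER line.

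*Cdk19*, a kinase of the Mediator complex, had an intron peak with a RUNX site (chromosome 10, 40437155–40437554) and a peak 43998 bp beyond its end with an ETS1-type site. *Glis2*, a zinc-finger factor, had a pair of upstream peaks at 17654 and 7825 bp, and the farther held an ETS1-type site and a CTCF core. *Dars*, the aspartyl-tRNA synthetase, had an ETS site in an intron peak and an ETS1-type site in a peak 45195 bp upstream. *Foxb1*, a forkhead factor, had a peak in its UTR and another 41553 bp downstream that held an ETS site. The peaks in introns of *Ankrd33b*, *Dach1* and *Hecw2* held no ETS site in the central 80 bp. Of these, an *Ankrd33b* peak had a RUNX site and a *Hecw2* peak an AGAAGTG. The *C130074G19Rik* pair lay downstream of that gene, and the peak at 184853268–184853667 held a PU.1-type site and a CTCF core. The *1600014C23Rik* pair, printed above, each held an ETS site, which was of the PU.1 type in the peak nearer the gene.

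Lists of blood genes were examined by the same assignment. Of 53 haematopoietic transcription factors, 4 were assigned a member (7.55%), beside 2.25% of all protein-coding genes. The numbers were 2 of 21 monocyte and macrophage genes matched in the annotation, 1 of 27 genes of lymphoid receptors and signalling, 1 of 9 progenitor receptors, 0 of 12 granule proteins and 0 of 13 megakaryocyte and erythroid genes. The lists are short, and no set test was made.

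Among the transcription factors, *Fli1*, itself an ETS family member, had an intron peak at 32530995–32531394 of chromosome 9, 11666 bp from its start, with an ETS1-type site. *Bcl11a*, a zinc-finger factor of B-cell development and globin switching, had an intron peak 1609 bp from its start (chromosome 11, 24079465–24079864) with an ETS site. The peak assigned to *Zeb2*, a zinc-finger repressor, lay 14182 bp beyond the end of the gene (chromosome 2, 44969250–44969649) and held an ETS site. *Ikzf3*, which encodes the lymphoid factor Aiolos, had a peak 6960 bp beyond its end (chromosome 11, 98457742–98458141). That peak had 73.3% G+C and no ETS or RUNX site in the central 80 bp.

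Among receptors and effectors, *Csf2rb*, the shared beta chain of the GM-CSF, IL-3 and IL-5 receptors, had an intron peak at 78331547–78331946 of chromosome 15. Its central 80 bp held an AGAAGTG and no GGAAGT. *Ncf4*, a cytosolic subunit of the phagocyte NADPH oxidase, had an intron peak on the same chromosome (78257184–78257583) with an ETS site, and its centre was 542 bp from that of a CEBPA peak of the EV line. *Fcgr1*, the high-affinity IgG receptor of monocytes and macrophages, had a peak 9074 bp beyond its end with a RUNX site. The peak of *Cd28*, the T-cell costimulatory receptor, lay 14022 bp upstream. Its central 80 bp held neither an ETS nor a RUNX site. Of these 8 peaks on the lists, 4 held GGAAGT in the central 80 bp.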

How the data were processed

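PU.1 and CEBPA ChIP-Seq libraries of the EV and PuER lines were used. The authors mapped reads to mm10 and called peaks per library, and per the labels the tools were Bowtie2 2.0.6 and MACS2 2.0.10. The deposited files hold peak coordinates (chromosome, start and end), with no counts or scores. The calling threshold is not given in the sources used here. Samples for H3K27Ac and IgG are not analysed here.

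Overlaps of at least 1 bp, distances of peak centres and gene places were computed with the GENCODE M21 annotation, and sequence was read from the GRCm38 (mm10) reference. No expression or peak height entered. Shares have exact Clopper-Pearson 95% intervals. Differences between classes have Newcombe intervals, adjusted (Bonferroni) over 42 motif and 36 position differences, and no p-values were computed. Sequences of 6 bases were ranked by a score, (p − f)/√(p + f + 1), where p is the number of peaks and f the number of flanking windows that hold the sequence, the latter divided by 2. The overlap, motif and interval steps were tested on simulated data.

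The peaks, motifs and gene lists were chosen with earlier results of these data known. The GAAGTG and AGAAGTG counts, the CpG-rich cutoffs and the AGAAGTG and CTCF sequences were chosen after their values were seen. Named genes were the 12 with the most members (ties in alphabetical order), every listed gene with a member, and genes of printed peaks. Genes named with the CEBPA overlaps and the closest pair fall outside this rule. Alternatives were other overlap, distance, promoter and assignment rules, and other lengths of sequence. Tools were samtools 1.23.1, pysam 0.24.0, scipy 1.17.1 (intervals), pandas 2.3.3, numpy 2.4.6 and matplotlib 3.10.9 under Python 3.11.15.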

Additional observations from a re-analysis of the deposited data

How the results depend on the processing

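The number of peaks (482) ranged from 408, when no CEBPA peak was allowed within 1000 bp, to 663, when CEBPA centres within 100 bp were required for an overlap. The number of genes assigned ranged from 410 to 663 (main value 493). The length of sequence searched moved the motif shares. With the central 200 bp the shares were 53.3% for ETS, 23.2% for ETS1-type, 30.9% for RUNX and 8.09% for CEBP sites. With the whole 400 bp they were 60.0%, 26.3%, 41.1% and 13.9%, and 6.22% for PU.1-type sites. Window length also changed which differences excluded 0. ETS against PuER-only peaks was lost at 200 and 400 bp and RUNX against them at 400 bp. CTCF and GC box against shared peaks were gained at both lengths, MYB against EV-only peaks with CEBPA at 200 bp and RUNX against them at 400 bp. The intervals were not adjusted for the number of lengths. The numbers of motifs that differed from EV-only peaks with CEBPA, shared and PuER-only peaks went from 4, 2 and 7 to 5, 4 and 6 at 200 bp and 5, 4 and 5 at 400 bp. Counting genes of any type raised the share inside genes to 58.7%. The overlap with CEBPA of the PuER line became 20.5% when CEBPA centres within 100 bp defined the class, since this rule admits peaks that touch CEBPA of the EV line, and 0.490% when no CEBPA peak of the EV line was allowed within 1000 bp. The other 85 of 97 alternative values stayed within the 95% interval of the main share or within 1.5 times the main count. That count includes the rule that kept chromosomes 1 to 19, X and Y, which left all 482 members in place and changed no value. The signs of the ETS, PU.1-type, ETS1-type, CTCF, GC box and RUNX differences from each class in the central 80 bp were the same under all 8 alternative rules of membership, the chromosome rule among them. No paired analysis was possible because there was 1 library per antibody and line. A stricter calling threshold could not be tried without scores, and the unknown depth limits any statement about weak peaks.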
